A study of Mus musculus with 16 samples.

Results

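The gastrocnemius levels of 10 genes of methyl-group, serine and folate metabolism were followed in 16 mice: Gnmt, Nnmt, Mat2a, Mat2b, Ahcy, Phgdh, Psat1, Shmt2, Mthfd2 and Mthfd1l. They are 10 of the 21923 genes in the table and were taken by symbol. The set was chosen by its CAC and NOR values, above all because Gnmt was higher in the CAC mice, so that comparison is given for them as a description and no test of it is read. All 10 passed the low-count filter in every comparison. Each of them makes, spends or recycles a methyl group, serine or a folate-bound carbon, as the name of the set says.

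There were 4 groups with 4 libraries each, and in every group replicates 1 and 2 are labelled C57BL/6 and replicates 3 and 4 BALB/c. NOR mice were normal controls that received PBS and no tumor. CAC mice carried a subcutaneous tumor, LLC (a lung carcinoma line) in C57BL/6 or CT26 (a colon carcinoma line) in BALB/c, and were injected with PBS. AM mice carried the same tumors and received amiloride, a diuretic that also lowers exosome release, at 2 mg/kg into the peritoneum every day from day 9. KD mice were inoculated with cells of those lines in which Rab27a and Rab27b, GTPases of exosome secretion, were knocked down. By the study's methods the KD mice also received daily PBS into the peritoneum from day 9, without amiloride. All mice were adult; the study's methods call them male, whereas the labels give both sexes for BALB/c. Muscle was taken on day 30. Strain and tumor line change together by the labels, so they cannot be told apart. The labels do not say whether mice shared a litter, cage or batch, so p-values measure the spread between these libraries.

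S-adenosylmethionine (SAM) is the methyl donor of the cell. It is made from methionine by MAT enzymes, and each methyl transfer leaves S-adenosylhomocysteine (SAH), which blocks further transfers until it is split. Serine, made from a glycolytic intermediate or taken up, hands its side-chain carbon to folate, which can carry it back to homocysteine and so renew methionine. In liver, where this cycle is busiest, GNMT burns surplus SAM by methylating glycine, whereas in skeletal muscle the gene is weakly expressed.

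Libraries held 35913190 to 61032708 counts. The 8 muscle markers (among them Acta1, Ckm and Myh4) summed to between 58320 and 121000 FPKM, a level scaled to gene length and library size, so muscle transcripts were abundant in every library. AM replicate 1 also held liver RNA: Alb, the plasma albumin made by hepatocytes, read 659.79 FPKM there and 0.02 to 7.56 in the other 15 libraries, and 15 of the 16 liver markers (all but Cyp2e1) summed to 1747 FPKM against 0.47 to 19.08. Cyp2e1 was left out of that sum after its values were seen: it read 174.63 FPKM in AM replicate 1 and 26.78 to 408.96 in the others, highest in KD replicate 1, CAC replicate 3, NOR replicate 4 and CAC replicate 4. With Cyp2e1 the sum was 1922 FPKM in AM replicate 1 and 27.43 to 423.2 elsewhere. The 6 adipocyte markers summed to between 258.7 and 5427 FPKM, with 5 libraries from 4 groups at the top (CAC replicate 3, AM replicate 2, NOR replicate 4, KD replicate 1 and KD replicate 4, at 2772 or more). The tissue is bulk RNA, in which fewer cells of a type and less RNA per cell cannot be told apart.

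A second split ran across the labels. Among genes chosen after the values were seen, Nnt, the mitochondrial transhydrogenase whose gene carries an exon deletion in C57BL/6J mice, read 36.47 FPKM in CAC replicate 4, 20.67 in AM replicate 1, 27.35 in AM replicate 3 and 15.4 in KD replicate 1, and 1.74 to 5.79 in the other 12 libraries. Pttg1 (securin) stood at 1.42 to 5.71 FPKM in those 4 libraries and at 37.16 to 60.75 in the 12. Of the 4 Nnt-high libraries, AM replicate 1 and KD replicate 1 are labelled C57BL/6, and CAC replicate 4 and AM replicate 3 BALB/c. The labelled strain therefore does not follow these genes, and the members' fold changes are given below with and without the 4 libraries. No NOR mouse is among them, and what set them apart was not tested.

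On the FPKM scale, which takes gene length into account, Mat2a was the most abundant of the 10 with a mean of 57.2 over the 16 libraries. Ahcy (35.7) and Mat2b (34.4) came next, followed by Phgdh (22.2), Shmt2 (17.7), Nnmt (8.26), Psat1 (5.38), Mthfd2 (4.94), Gnmt (3.72) and Mthfd1l (1.71). Neighbours in this order overlapped from mouse to mouse. The genes also differed in how much they varied. The highest library exceeded the lowest 1.64-fold for Mat2b, 1.75-fold for Shmt2 and 2.07-fold for Mat2a, but 29.8-fold for Gnmt, 15.2-fold for Mthfd1l and 9.23-fold for Phgdh.

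**Figure D1:**
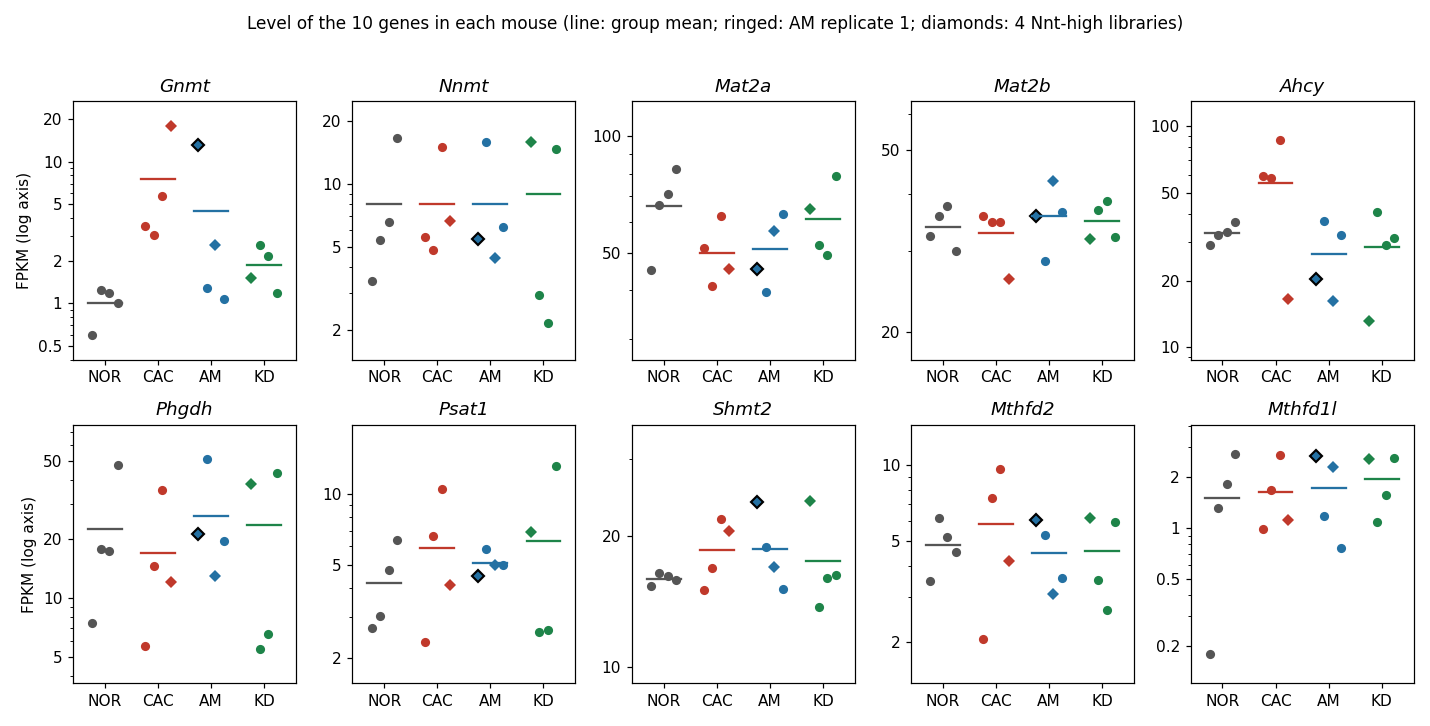
FPKM of each of the 10 genes (log axis) in the 4 NOR, 4 CAC, 4 AM and 4 KD mice; each point is 1 mouse, lines are group means, the ringed point is AM replicate 1 with liver RNA, and diamonds are the 4 Nnt-high libraries. Gnmt lies at 3.03 FPKM or more in every CAC mouse and at 1.24 or less in every NOR mouse, and the 4 lowest Ahcy values are the 4 diamonds.

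Gnmt encodes glycine N-methyltransferase, which passes a methyl group from SAM to glycine to give sarcosine. The gene (ENSMUSG00000002769) lies at chr17:46725664-46729168 on the minus strand (GRCm38, GENCODE M21), overlaps no exon of another gene, and shares no 31-base word with another gene's transcripts. The 250 bases before its RefSeq start (GRCm38.p6) are shown because this gene varied most; capitals mark CCAAT boxes on either strand.
Gnmt, chr17:46729166-46729415, minus strand: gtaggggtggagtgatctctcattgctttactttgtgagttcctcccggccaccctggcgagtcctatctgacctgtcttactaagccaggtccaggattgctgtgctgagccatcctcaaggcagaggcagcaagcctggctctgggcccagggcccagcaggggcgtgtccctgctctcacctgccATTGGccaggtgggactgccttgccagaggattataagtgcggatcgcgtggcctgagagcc
The capitals are a CCAAT box read on the opposite strand, 62 bases before the start.

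The NOR mice had 0.60, 1.24, 1.19 and 1.00 FPKM of Gnmt (replicates 1 to 4). The CAC mice had 3.54, 3.03, 5.69 and 17.88. The groups did not overlap, and the pair of CAC mice labelled BALB/c lay above the pair labelled C57BL/6. The group means were 7.54 ± 6.99 in CAC and 1.01 ± 0.291 in NOR (SD, n = 4), and the fitted log2 fold change was 2.78 (6.87-fold). CAC replicate 4 carried much of that size: without it, which is also the fit without the 4 Nnt-high libraries in this comparison, the log2 fold change was 1.89. By the call rule used below (false discovery rate, FDR, at most 0.05 and at least 1.5-fold) 1 member of 10, Gnmt, was counted in CAC vs. NOR, where 9.45% of all genes tested were, and 1 of 10 did not overlap, where 22.8% of all genes did not. Both counts were fixed by the choice of genes and are no evidence.

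In the AM mice Gnmt read 13.06, 1.29, 2.57 and 1.08 FPKM. The first is the library with liver RNA, and the other 3 all lay below the lowest CAC mouse. With all 4 mice, Gnmt was 0.73 lower on the log2 scale in AM than in CAC (log2 fold change -0.73, 95% interval -2.70 to 1.25, FDR 0.690). Without AM replicate 1 it was -2.08 (95% interval -3.71 to -0.46, 4.24-fold lower), with a p of 0.0187 and an FDR of 0.159 in edgeR's quasi-likelihood test, so the difference did not pass. Without the 4 Nnt-high libraries, which leaves 2 AM and 3 CAC mice, it was -1.67 (FDR 0.129). Without CAC replicate 4 alone it turned to 0.15 (FDR 0.948), in a fit that still held AM replicate 1.

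In the KD mice Gnmt read 1.52, 2.57, 2.14 and 1.19 FPKM. All 4 lay below the 4 CAC mice, and 3 of them above every NOR mouse. KD vs. CAC gave -1.84 (95% interval -3.24 to -0.44, 3.57-fold lower) with an FDR of 0.343 in edgeR's quasi-likelihood test. The value was -0.78 (FDR 0.590) without the 4 Nnt-high libraries, which removes the highest CAC mouse. Both tests share the CAC mice that chose the gene. Against NOR, Gnmt differed by 2.06 in AM (FDR 0.531), by 0.69 in AM without replicate 1 (FDR 0.862) and by 0.95 in KD (FDR 0.999), all on the log2 scale. Without the 4 Nnt-high libraries these were 0.24 in AM (FDR 0.998) and 1.10 in KD (FDR 0.758). AM vs. KD, the one comparison made of groups that the choice of genes did not use, gave 1.11 (FDR 1.00), -0.26 without AM replicate 1 and -0.86 without the 4 Nnt-high libraries (FDR 0.953).

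Liver expresses Gnmt strongly, and the highest libraries differed in their liver markers. AM replicate 1, at 13.06 FPKM, held Mat1a, the liver form of methionine adenosyltransferase, at 9.79 FPKM, and Bhmt, which renews methionine from betaine in liver, at 18.1 FPKM. CAC replicate 4, at 17.88 FPKM, had Alb at 0.41 and Mat1a at 0 FPKM, and its 15 liver markers summed to 2.88 FPKM, inside the range of the NOR mice (0.65 to 11.39); with Cyp2e1 the sum was 298.4, and 27.43 to 335.6 in NOR. In the 3 other CAC mice that sum was 0.47 to 10.9 FPKM. Whether liver RNA had a part in the CAC levels was not tested. How much of the Gnmt in AM replicate 1 came with the liver RNA was not tested.

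**Figure D2:**
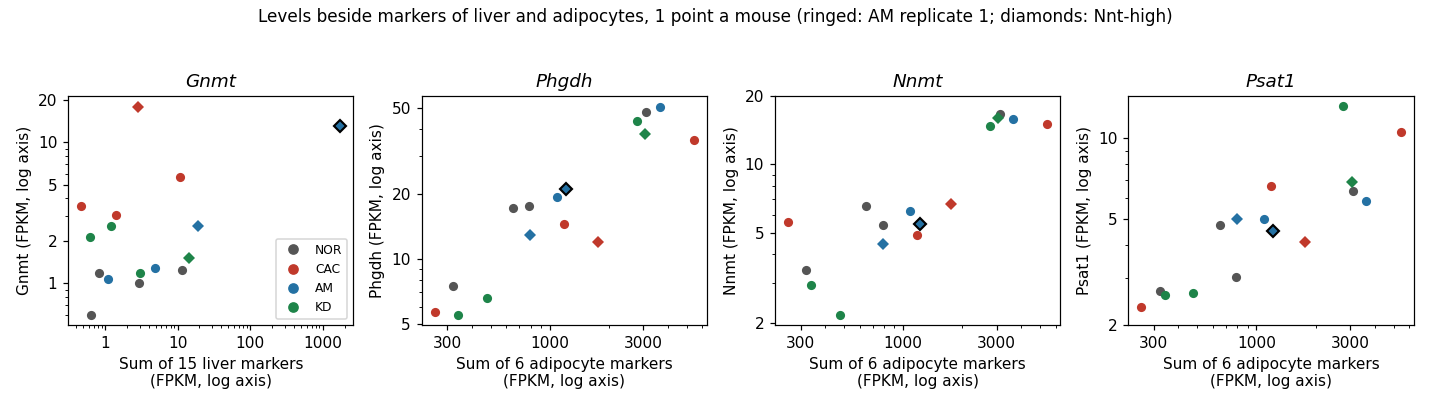
Gnmt against the sum of 15 liver markers, and Phgdh, Nnmt and Psat1 against the sum of 6 adipocyte markers, all in FPKM on log axes, with 1 point a mouse in its group's colour. AM replicate 1 (ringed) stands alone at a liver sum of 1747 FPKM, while the highest Gnmt point, CAC replicate 4, has a liver sum of 2.88; the 5 libraries richest in adipocyte markers have the 5 highest Phgdh and Nnmt values.

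Nnmt encodes nicotinamide N-methyltransferase, the other SAM consumer of the set, which is known from adipose tissue and liver and lies at chr9:48591877-48605153 (minus strand). Its levels were 3.43, 5.39, 6.58 and 16.72 FPKM in NOR, 5.55, 4.86, 15.06 and 6.67 in CAC, 5.48, 15.95, 4.44 and 6.24 in AM, and 15.98, 2.94, 2.16 and 14.73 in KD. The groups overlapped throughout. The 5 highest values, 14.73 to 16.72 FPKM, came from the 5 libraries with the highest adipocyte marker sums, and the other 11 libraries lay between 2.16 and 6.67. Those 5 libraries also had high sums of the macrophage markers Adgre1, Csf1r, Cd68 and Mrc1, at 47.94 to 78.98 FPKM. CAC replicate 4 had a macrophage sum of 61.61 with Nnmt at 6.67 FPKM. The part of these cells in the Nnmt level was not tested. On the log2 scale CAC differed from NOR by -0.14. AM differed from CAC by 0.12 (95% interval -0.95 to 1.19, FDR 0.919), by 0.28 without AM replicate 1 (FDR 0.826), and KD from CAC by 0.23 (-1.15 to 1.61, FDR 0.951). Without the 5 adipocyte-rich libraries KD vs. CAC turned to -0.91 (FDR 0.393).

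Mat2a and Mat2b encode the catalytic and the regulatory subunit of the MAT enzyme that makes SAM outside the liver. Mat2a (chr6:72432799-72439558, minus strand) overlaps the opposite-strand transcript Particl over 11.3% of its exonic bases, and whether counting used strand is not given in the sources used here. Mat2a read 45.05, 66.45, 70.8 and 82.29 FPKM in NOR and 51.59, 41.1, 62.21 and 45.4 in CAC. The 3 highest NOR mice were above all CAC mice, and NOR replicate 1 was within their range. CAC mice differed from NOR by -0.51 on the log2 scale, a size under the 1.5-fold limit.

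In AM, Mat2a read 45.39, 39.73, 56.9 and 63 FPKM. The log2 fold change against CAC was 0.11 (95% interval -0.30 to 0.51, FDR 0.788), and 0.19 without AM replicate 1. KD mice had 64.71, 52.25, 49.31 and 78.78 FPKM. In CPM (counts scaled to library size), every KD mouse was above every CAC mouse, although the FPKM ranges overlapped. The log2 fold change was 0.41 (95% interval 0.06 to 0.75, FDR 0.380). Mat2a and Gnmt were the 2 members of 10 without overlap in KD vs. CAC, where 7% of all genes did not overlap. The CAC values helped to choose the genes, so nothing is read from this count, and for Gnmt the gap was between 3.149 CPM in KD replicate 2 and 3.156 in CAC replicate 2.

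Mat2b (chr11:40679314-40695203, minus strand) was among the steadiest of the 10. Its range was 30.04 to 37.63 FPKM in NOR, 26.06 to 35.94 in CAC, 28.51 to 42.73 in AM and 31.93 to 38.75 in KD. CAC replicate 4 had 26.06 FPKM beside 34.71 to 35.94 in the other 3 CAC mice. In CPM it did not stand apart, with the CAC mice at 74.8, 69.81, 57.87 and 49.05. Mat2b differed on the log2 scale by -0.17 between CAC and NOR, by 0.18 in AM vs. CAC (95% interval -0.20 to 0.56, FDR 0.598), 0.22 without AM replicate 1 (FDR 0.610), and 0.22 in KD vs. CAC (-0.23 to 0.67, FDR 0.756). 

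Ahcy encodes adenosylhomocysteinase, which splits SAH into adenosine and homocysteine and so clears the inhibitor that methyl transfer leaves behind. It lies at chr2:155059310-155074497 (minus strand). Of the 31-base words in its transcripts 71.4% recur in another gene, and 68.7% in Gm4737, an annotated near copy, so the reads of these 2 genes could be split by counting. Gm4737 took 21.0% to 24.2% of the reads given to the pair in 12 libraries. It took 61.9% in CAC replicate 4, 61.8% in AM replicate 1, 57.1% in AM replicate 3 and 63.1% in KD replicate 1, the same 4 libraries that were high for Nnt.

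Ahcy read 29.03, 32.07, 33.29 and 36.75 FPKM in the NOR mice. The CAC mice had 59.31, 58.37, 86.49 and 16.45. CAC replicates 1 to 3 were above all NOR mice, and the one below them was the Nnt-high CAC library. The fitted log2 fold change over all 4 mice was 0.62, and it was 0.92 without that library. With the counts of Ahcy and Gm4737 summed it was 0.71. The pair summed to 113.2, 108.5, 136.1 and 58.61 CPM in CAC and to 64.49, 59.64, 63.31 and 66.89 in NOR. CAC replicate 4 was then only just below the lowest NOR mouse (58.61 and 59.64 CPM). For Ahcy alone it had 22.32 CPM, beside 45.21 to 51.74 in NOR.

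In AM, Ahcy read 20.23, 37.09, 16.13 and 32.14 FPKM, with the 2 Nnt-high libraries at the bottom. The log2 fold change against CAC was -0.98 (95% interval -2.05 to 0.09, FDR 0.272), -0.85 without AM replicate 1 (FDR 0.432), and -0.71 for the summed pair (FDR 0.125). That pair summed to 69.51, 67.69, 54.6 and 61.95 CPM in AM, highest in AM replicate 1. In KD mice Ahcy read 13.17, 40.66, 28.97 and 31.14 FPKM, again with the Nnt-high library lowest. Its log2 fold change against CAC was -0.76 (-1.93 to 0.42, FDR 0.640). With Gm4737 added, the KD mice had 44.29, 89.91, 61.44 and 55.64 CPM, still lowest in KD replicate 1. Among the 12 libraries that were low for Nnt, Ahcy was 58.37 to 86.49 FPKM in 3 CAC mice, and 28.97 to 40.66 in the 4 NOR, 2 AM and 3 KD mice. Within those 12 the AM difference was -0.87 (FDR 0.109) and the KD difference -0.78 (FDR 0.493), so neither passed with these few mice.

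**Figure D3:**
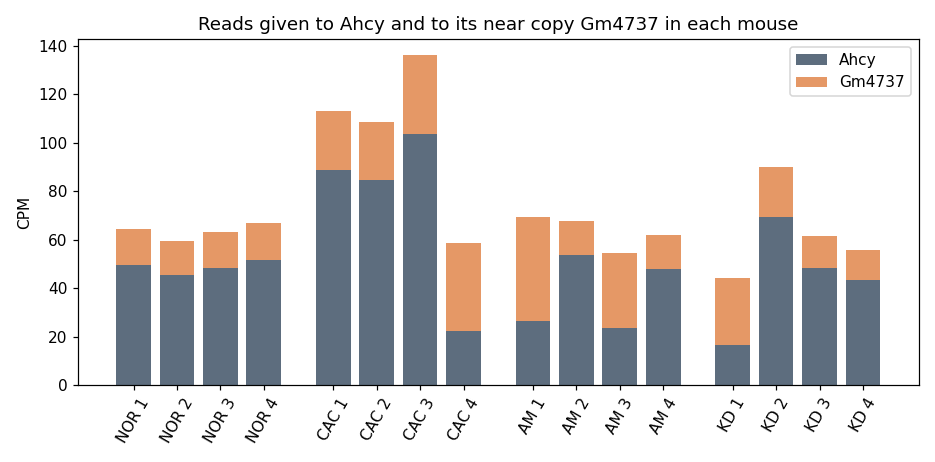
CPM given to Ahcy (grey) and to its near copy Gm4737 (orange), stacked, in each of the 16 libraries. The 3 tallest bars are CAC replicates 1 to 3 at 108.5 to 136.1 CPM, and Gm4737 takes most of the bar in CAC replicate 4, AM replicates 1 and 3 and KD replicate 1.

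Phgdh (phosphoglycerate dehydrogenase, chr3:98313170-98339990, minus strand) catalyzes the entry step of serine synthesis, and Psat1 (phosphoserine aminotransferase, chr19:15904678-15947337, minus strand) the next. Of the 31-base words in Phgdh transcripts 56.3% also occur elsewhere, mainly in processed pseudogenes such as Gm7901, so its count may hold or lack some of their reads. Their promoter sequences are shown because both genes varied together from mouse to mouse; capitals again mark CCAAT boxes (CCAAT) on either strand and TATA boxes (TATAAA), which overlap in Phgdh at the upstream site. Psat1 has 2 RefSeq starts, and the upstream one is shown.
Phgdh, chr3:98339970-98340219, minus strand: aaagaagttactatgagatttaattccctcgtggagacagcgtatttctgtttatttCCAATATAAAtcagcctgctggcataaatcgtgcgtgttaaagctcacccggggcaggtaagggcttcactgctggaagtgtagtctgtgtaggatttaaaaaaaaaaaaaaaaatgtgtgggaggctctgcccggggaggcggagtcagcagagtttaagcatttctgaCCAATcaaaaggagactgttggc
Psat1, chr19:15925060-15925309, minus strand: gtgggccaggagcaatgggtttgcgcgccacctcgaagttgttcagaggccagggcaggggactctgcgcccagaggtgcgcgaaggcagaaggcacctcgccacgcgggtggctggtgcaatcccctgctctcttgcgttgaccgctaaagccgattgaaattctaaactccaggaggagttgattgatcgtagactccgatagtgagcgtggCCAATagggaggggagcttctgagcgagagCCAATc
The CCAAT letters occur in 33.8% of all 32851 promoter windows of this length and TATAAA in 12.4%. These 2 motifs were added after the sequences had been read. The element TGATGNAA, bound by ATF4 with C/EBP, and the E-box CACGTG, held by 3.45% and 6.02% of all windows, were absent from the 250-base windows of the 9 members that have an entry (all but Nnmt); CCAAT was found in 7 of the 9. A match of letters is a description of the window and not of binding.

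Phgdh read 7.48, 17.65, 17.26 and 47.74 FPKM in NOR and 5.67, 14.52, 35.49 and 12.02 in CAC. AM mice had 21.08, 50.79, 12.87 and 19.39, and KD mice 37.98, 5.50, 6.57 and 43.38. The ranges of the 4 groups overlapped widely. As for Nnmt, the 5 libraries with the highest adipocyte sums were the 5 highest, at 35.49 FPKM or more against at most 21.08 in the rest. Phgdh differed on the log2 scale by -0.56 between CAC and NOR, by 0.75 in AM vs. CAC (95% interval -0.52 to 2.01, FDR 0.489), 0.87 without AM replicate 1 (FDR 0.506) and 0.56 in KD vs. CAC (-1.03 to 2.15, FDR 0.840).

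Psat1 read 2.69, 3.02, 4.73 and 6.35 FPKM in NOR, 2.34, 6.64, 10.56 and 4.08 in CAC, 4.49, 5.81, 4.98 and 5.00 in AM, and 6.89, 2.59, 2.64 and 13.2 in KD. The AM mice were close together and the KD mice split into a low and a high pair. The high pair, KD replicates 1 and 4, also had the higher marker sums of the KD mice for lymphocytes (152.4 and 54.53 FPKM beside 2.43 and 1.33), fibroblasts (981.3 and 991.3 beside 422.4 and 331.4), macrophages (78.98 and 69.99 beside 12.44 and 6.97) and dividing cells (13.36 and 7.14 beside 0.87 and 0.55), as well as for adipocytes, and their part in the split was not tested. Of the 5 adipocyte-rich libraries, 4 were among its 5 highest. Psat1 differed on the log2 scale by 0.34 between CAC and NOR, by -0.12 in AM vs. CAC (-0.95 to 0.72, FDR 0.895), -0.03 without AM replicate 1, and 0.21 in KD vs. CAC (-1.06 to 1.48, FDR 0.952). Without the adipocyte-rich libraries KD vs. CAC turned negative for both serine synthesis genes, to -0.58 for Phgdh and -0.49 for Psat1. Which cells of the sample carried these transcripts was not tested.

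Shmt2, Mthfd2 and Mthfd1l encode mitochondrial enzymes that take the carbon of serine onto folate, oxidize it and release it as formate. Shmt2 (serine hydroxymethyltransferase, chr10:127517123-127522444, minus strand) was steady: 15.39 to 16.42 FPKM in NOR, 15.05 to 21.95 in CAC, 15.1 to 23.93 in AM and 13.77 to 24.04 in KD. The 2 highest were AM replicate 1 and KD replicate 1, and the 2 highest CAC values were those of replicates 3 and 4. Shmt2 differed on the log2 scale by 0.08 between CAC and NOR, by 0.07 in AM vs. CAC (95% interval -0.21 to 0.35, FDR 0.804), -0.03 without AM replicate 1 and 0.03 in KD vs. CAC (-0.26 to 0.31, FDR 0.978). For Shmt2 the intervals leave out a 1.5-fold change in the AM and the KD comparison with CAC.

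Mthfd2 (methylenetetrahydrofolate dehydrogenase, chr6:83305691-83325908, minus strand) ranged from 3.47 to 6.15 FPKM in NOR, from 2.05 to 9.65 in CAC, from 3.10 to 6.05 in AM and from 2.66 to 6.15 in KD. The CAC mice held both the lowest and the highest library. Mthfd2 differed on the log2 scale by 0.12 between CAC and NOR, by -0.29 in AM vs. CAC (FDR 0.749), -0.42 without AM replicate 1 (FDR 0.695) and -0.22 in KD vs. CAC (FDR 0.914). Mthfd1l (the mitochondrial formate-producing synthetase, chr10:3973118-4167081, plus strand) was the weakest gene, at 0.18, 1.32, 1.81 and 2.73 FPKM in NOR and 0.98, 1.68, 2.72 and 1.12 in CAC. AM mice had 2.66, 1.18, 2.31 and 0.76, and KD mice 2.57, 1.09, 1.57 and 2.60. The fitted change was 0.0027 between CAC and NOR, 0.15 in AM vs. CAC (FDR 0.874), -0.07 without AM replicate 1 (FDR 0.957) and 0.39 in KD vs. CAC (FDR 0.724). Without the 4 Nnt-high libraries the AM value turned to -0.75 (FDR 0.434).

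Leaving out the 4 Nnt-high libraries (CAC replicate 4 between CAC and NOR) gave CAC minus NOR differences on the log2 scale of -0.066 for Nnmt, -0.47 for Mat2a, -0.062 for Mat2b, -0.44 for Phgdh, 0.48 for Psat1, 0.035 for Shmt2, 0.25 for Mthfd2 and 0.14 for Mthfd1l. In AM vs. CAC, with 2 AM and 3 CAC mice left, Phgdh differed by 1.09 (FDR 0.520), Nnmt by 0.53 (FDR 0.708), Mthfd2 by -0.39 (FDR 0.811) and Mthfd1l as above. Mat2a (0.10), Mat2b (-0.024), Shmt2 (0.023) and Psat1 (-0.12) were close to 0. In KD vs. CAC, with 3 mice a group, Mat2a differed by 0.41 (FDR 0.537), Mthfd2 by -0.44 (FDR 0.780), Mat2b by 0.24, Nnmt by -0.19, Mthfd1l by 0.18, Phgdh by 0.17, Psat1 by 0.080 and Shmt2 by -0.0080. None of these AM and KD values passed the test.

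Counted over the set, edgeR's quasi-likelihood test with Benjamini-Hochberg adjustment called 0 of 10 members in AM vs. CAC, where 3.66% of all genes were called and 15.7% did not overlap (0 of 10 members). Without AM replicate 1 it also called 0, where 1.81% of all genes were called. It called 0 of 10 in KD vs. CAC, where the share of all genes was 0.00685%, and 0 of 10 in the comparisons of AM with NOR, KD with NOR and AM with KD, where it was 0% with all mice and also 0% without AM replicate 1. At an unadjusted p under 0.05 there were 0 members for AM against CAC, 2 for KD against CAC, 1 each for AM and KD against NOR, 0 for AM against KD, and 1 for AM against CAC without AM replicate 1. Without AM replicate 1 there were also 0 for AM against NOR, beside 5.74% of all genes, and 0 for AM against KD, beside 0.645%. Over all alternatives the number ran from 0 to 2 for AM against CAC and for AM against NOR, and from 0 to 3 in the other 3 comparisons. Of all genes tested, 21.7% were at such a p for AM against CAC, 11.1% for KD against CAC, 9.19% and 3.54% for AM and KD against NOR, 1.11% for AM against KD, and 19.4% for AM against CAC without AM replicate 1. DESeq2 and limma-voom called 0 members in each of these 5 comparisons too. Over all genes DESeq2 called 7.63% for AM against CAC, 2.33% for KD against CAC, 0.475% for AM against NOR, 0.21% for KD against NOR and 0.00678% for AM against KD, and limma-voom 3.77% for AM against CAC and 0% in the other 4. The median log2 fold change of the 10 was 0.09 for AM against CAC and 0.21 for KD against CAC, beside 0.0072 and 0.00018 over all genes tested. Without AM replicate 1 the former turned to -0.027, beside -0.011 over all genes. A difference between the labelled strains (the interaction of strain and condition) was found for 0 of 10 members with either treatment arm set against CAC. The smallest FDR was that of Mat2b in AM vs. CAC (0.295, difference of C57BL/6 minus BALB/c -0.82), and 0 genes of all tested passed in either. As the labels do not follow Nnt and Pttg1, this test compares labels.

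**Figure D4:**
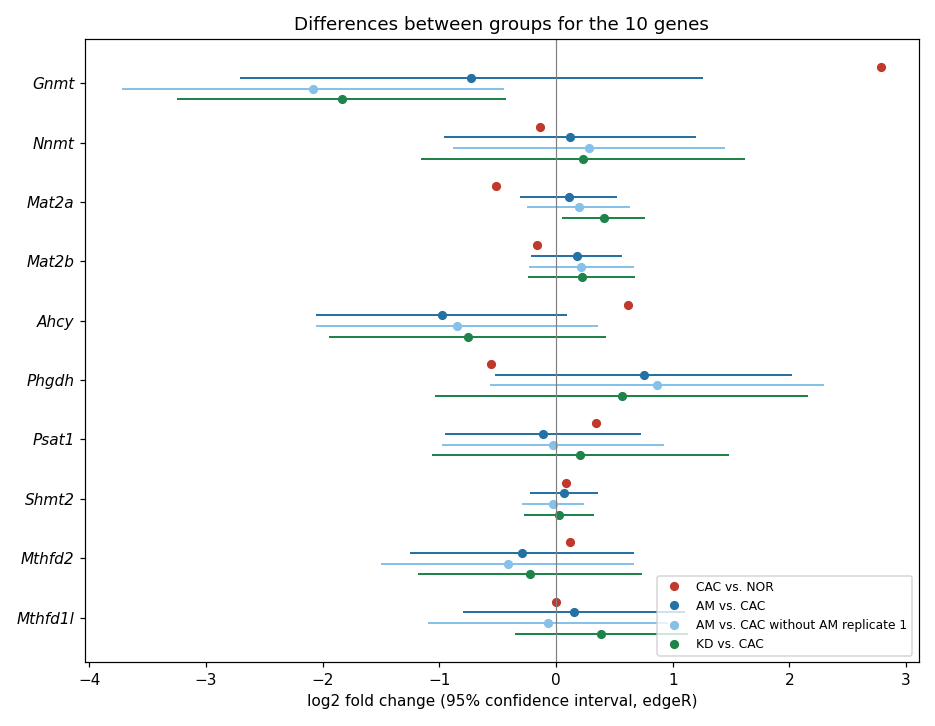
Fitted log2 fold changes of the 10 genes between CAC and NOR (red, shown without an interval because these values chose the set), AM vs. CAC (dark blue), AM vs. CAC without replicate 1 (light blue) and KD vs. CAC (green); lines are 95% confidence intervals. Gnmt lies at 2.78, -0.73, -2.08 and -1.84, and the intervals of most other genes span 0.

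The rest of the pathways was read from a list of 71 genes in 7 groups. In CAC vs. NOR 62 were tested and 6 called, 2 higher and 4 lower, with a median log2 fold change of -0.11 (0.01 over all genes), beside a share of 9.45% of all genes called. Leaving out 1 mouse gave 1 called gene without NOR replicate 2 or NOR replicate 3, 3 without NOR replicate 1, CAC replicate 1 or CAC replicate 3, and 4 or 5 without each of the others. Both called genes of the transsulfuration group, which turns homocysteine into cysteine, were higher in CAC: Cbs (cystathionine beta-synthase) by 1.74 on the log2 scale (FDR 0.0433) and Cth (cystathionine gamma-lyase) by 0.70 (FDR 0.0484), and the other 2 genes of that group did not pass. Cbs read 0.53, 0.52, 2.29 and 1.26 FPKM in CAC and 0.24, 0.42, 0.24 and 0.31 in NOR. Cth read 2.92, 2.3, 4.19 and 3.5 in CAC and 1.55, 2.24, 1.44 and 2.03 in NOR.

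Of the 8 methyltransferases, 1 was called in CAC vs. NOR: Gamt, which makes creatine with a methyl group from SAM. Its 4 CAC mice had 5.61, 4.99, 2.89 and 4.34 FPKM and its 4 NOR mice 20.29, 18.9, 17.09 and 17.29, a log2 fold change of -2.15 (FDR 0.00380). The AM mice had 9.87, 12.09, 18.46 and 17.38, all above CAC, with a log2 fold change of 1.74 (FDR 0.0238) and of 1.91 without AM replicate 1 (FDR 0.0331). In KD it read 16.16, 5.91, 10.16 and 19.47, also all above CAC, with 1.57 (FDR 0.263). The higher KD values were those of replicates 1 and 4, the pair described under Psat1 with higher marker sums for several cell types. The part of those cells in the Gamt level was not tested. In CAC, Gamt was lower and Gnmt higher, and Gamt was the 1 pathway gene still called in AM vs. CAC without AM replicate 1. Gamt was not called in AM vs. CAC without CAC replicate 2, AM replicate 3, AM replicate 4 or the 4 Nnt-high libraries.

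Nmrk2, the muscle nicotinamide riboside kinase that feeds NAD synthesis, read 4.51, 10.07, 5.33 and 20.94 FPKM in CAC and 44.72, 78.77, 62.97 and 29.76 in NOR. It fell by 2.51 in CAC (FDR 0.0189) and was 2.54 higher in AM than in CAC (FDR 0.0268), which became 2.56 with an FDR of 0.0602 without AM replicate 1. The KD mice had 230.4, 20.14, 9.65 and 40.88 FPKM, with a log2 fold change against CAC of 2.83 (95% interval 0.66 to 5.00, FDR 0.347). KD and CAC mice overlapped. Aldh1l2, the mitochondrial 10-formyltetrahydrofolate dehydrogenase downstream of Mthfd2, fell by 1.39 in CAC (FDR 0.0227), from 1.21 to 1.58 FPKM in NOR to 0.34 to 0.86. Folr2, a folate receptor of macrophages, fell by 1.03 in CAC (FDR 0.0485) with overlapping groups. Of the 4 macrophage markers, mean CPM was higher in CAC than in NOR for Adgre1 (22.1 and 8.94; its FPKM was 37.55 in CAC replicate 4 and 4.34 to 11.64 in the other CAC mice) and Cd68 (15.8 and 11.9), and lower for Csf1r (52.6 and 55.2) and Mrc1 (28.0 and 31.5); their part in the Folr2 result was not tested. Inmt, which methylates indole amines, fell by 1.45 in AM against CAC (FDR 0.0440), and by 1.25 without AM replicate 1 (FDR 0.0717).

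In AM vs. CAC 3 of 63 pathway genes were called (Gamt and Nmrk2 higher, Inmt lower), beside 3.66% of all genes, and 1 without AM replicate 1. The count was also 1 without CAC replicate 1, CAC replicate 4 or AM replicate 2, 2 without CAC replicate 3, and 0 without CAC replicate 2, AM replicate 3, AM replicate 4 or the 4 Nnt-high libraries. In KD vs. CAC edgeR called 0 of 62, with 8 (12.9%, beside 11.1% of all genes) at an unadjusted p under 0.05, while DESeq2 called 2 and limma-voom 0. The serine and glycine group, which holds Psph (the last enzyme of serine synthesis), Shmt1 and the glycine cleavage genes, had 0 called in each of the 3 comparisons. Of 9 genes of the ATF4 list, a transcription factor known to drive Phgdh, Psat1, Shmt2 and Mthfd2, 1 was called in CAC vs. NOR, Nupr1, with a log2 fold change of -0.81 (FDR 0.00416). Atf4 itself was 0.46 higher in CAC (FDR 0.0238) and 0.57 lower in AM than in CAC (log2 fold change -0.57, FDR 0.0202), both under the 1.5-fold limit; without AM replicate 1 the latter FDR was 0.0602.

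**Figure D5:**
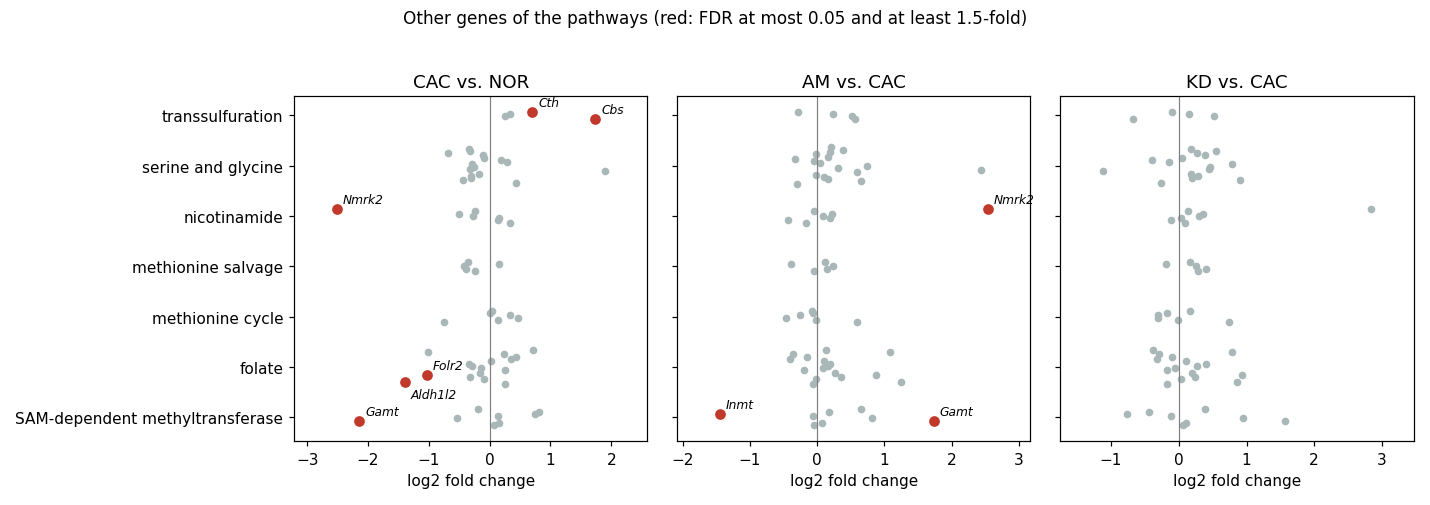
Log2 fold changes of the tested genes of the 7 pathway groups (rows), with 1 panel a comparison (left CAC vs. NOR, middle AM vs. CAC, right KD vs. CAC); red points are called (FDR at most 0.05 and at least 1.5-fold) and named. Gamt and Nmrk2 are called lower in CAC and higher in AM, and no point is red in KD vs. CAC.

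The genes whose level most resembled that of Gnmt, by Pearson's r of log2 CPM over the 16 libraries among 13188 genes, were Stat3 (0.893), a transcription factor of cytokine signalling, Thoc5 (0.892), Amigo2 (0.889), Foxk1 (0.883) and Cpsf4 (0.881). Over the 15 libraries without AM replicate 1 they were Stat3 (0.942), Amigo2 (0.936), Exosc5 (0.934), Ube2j1 (0.930) and Cyyr1 (0.926). Stat3 and Amigo2 stood on both lists. The libraries share the contrast between CAC and NOR by which Gnmt was picked, so these coefficients describe that pattern. Among the members themselves the closest pair was Nnmt and Phgdh (r = 0.890, and 0.905 without AM replicate 1), then Phgdh and Psat1 (0.789 and 0.797).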

How the data were processed

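Gastrocnemius mRNA of 16 mice (4 groups of 4) was sequenced after oligo(dT) enrichment. The authors deposited raw read counts per gene and FPKM values made from the same libraries. The submitters' processing notes name fastp, Bowtie2, HISAT2 and StringTie 1.3.1, and the builds mm9 and GRCm38 without a role; whether counting used strand is not given in the sources used here. Of the 21923 genes in the table, 3719 had no count in any library.

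Counts were tested with edgeR 4.0.16 in R 4.3.3 (quasi-likelihood F test, TMM scaling, low counts removed by filterByExpr set to 10 per library and 15 in total) on the 8 libraries of each pair of groups, with Benjamini-Hochberg adjustment over all genes tested. The study's own method, NOISeq, was not used here. Calls needed an FDR no higher than 0.05 together with a 1.5-fold difference either way. Levels are given in deposited FPKM, as edgeR tests only counts. The scripts were tested on simulated data.

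The members and lists were chosen with earlier results of these data known. Named genes were the 10 members, up to 10 called pathway genes a comparison by size of change, the defining markers, and the 5 genes with the highest Pearson r with Gnmt among genes of at least 1 CPM on average. Over the 16 libraries, marker sums ran from 1.33 to 219.3 FPKM for lymphocytes, 331.4 to 1004 for fibroblasts, 6.97 to 78.98 for macrophages and 0.55 to 13.36 for dividing cells. Positions and shared 31-base words come from GENCODE M21 (GRCm38), and promoters from RefSeq; 9 of 10 members had a promoter entry. Alternatives were DESeq2 1.42.0, limma-voom (limma 3.58.1), other scalings and filters, labelled strain as a covariate, each labelled strain alone, a replicate block, and leaving out each mouse. Leaving out the 5 adipocyte-rich or the 4 Nnt-high libraries and summing Ahcy with Gm4737 were chosen after seeing the data.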

Additional observations from a re-analysis of the deposited data

Results flagged for a closer look

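In 3 of the 40 groups of 4 mice examined (10 genes in 4 groups), 1 mouse stood farther from the rest than Dixon's test allows at the 95% level; chance alone marks about 1 group in 20. Gnmt in AM replicate 1, the library with liver RNA, was 13.06 FPKM, a gap to the nearest AM mouse of 0.876 of the group's range. Nnmt in AM replicate 2, the AM library richest in adipocyte markers, was 15.95 FPKM (0.844 of the range). Mat2b in CAC replicate 4, an Nnt-high library, was 26.06 FPKM, below the other CAC mice (0.876 of the range); in CPM the gap was 0.343 of the range, within the limit. What set these mice apart was not tested.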

How the results depend on the processing

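The alternatives without the 5 adipocyte-rich libraries, without the 4 Nnt-high libraries and with Ahcy and Gm4737 summed were chosen after seeing the data. The count of 0 members called in the 5 comparisons other than CAC vs. NOR stayed at 0 under every alternative run. The count of 0 with a strain difference stayed at 0 under the 3 alternatives run for it (RLE scaling, no low-count filter and limma-voom). In CAC vs. NOR the 1 member counted, Gnmt, whose count the choice of genes fixed, became 0 in limma-voom, in the mice labelled BALB/c alone and without the adipocyte-rich libraries. In the mice labelled C57BL/6 alone the 1 member was Ahcy and not Gnmt. The count was 2 without the Nnt-high libraries (Gnmt and Ahcy), and 0 to 2 when 1 mouse was left out: 0 without NOR replicate 2 or NOR replicate 3, 2 without NOR replicate 1 (Gnmt and Mat2a) or CAC replicate 4 (Gnmt and Ahcy). The 6 pathway genes called in CAC vs. NOR became 10 with DESeq2, 3 with all 16 libraries in 1 fit, 2 and 0 in the mice labelled C57BL/6 and BALB/c alone, and 1 to 5 without 1 mouse. The 3 in AM vs. CAC became 6 with DESeq2, 1 with strain as covariate, with all 16 libraries or without the adipocyte-rich libraries, 0 in either labelled strain alone or without the Nnt-high libraries, and 0 to 2 without 1 mouse. The 0 in KD vs. CAC became 2 with DESeq2 and 1 with all 16 libraries. Over all genes, the 537 called in AM vs. CAC became 1119 with DESeq2, 49 without the adipocyte-rich libraries and 0 without the Nnt-high libraries, and the 1 called in KD vs. CAC became 340 with DESeq2.

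Same-numbered mice did not deviate together throughout (correlations from -0.64 to 0.60), and the labels do not pair them. With a replicate block, 3 pathway genes were called in CAC vs. NOR and 0 in AM vs. CAC, 0 of all genes were called in AM vs. CAC, and 0 members were called there and in KD vs. CAC. Under the block the log2 fold change of Psat1 in AM vs. CAC was 0.0456 and that of Nnmt in KD vs. CAC -0.0289, both of changed sign.

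Other fold changes also changed sign. In AM vs. CAC these were Nnmt -0.057 and Psat1 0.036 in limma-voom; Gnmt 0.98, Mat2a -0.22, Mat2b -0.23, Mthfd2 0.17 and Psat1 0.12 in the mice labelled C57BL/6; Nnmt -0.80, Mthfd1l -0.11, Shmt2 -0.21 and Phgdh -0.32 in those labelled BALB/c; Nnmt -0.088 and Psat1 0.14 without the adipocyte-rich libraries; Mat2b -0.024 and Mthfd1l -0.75 without the Nnt-high libraries; and Nnmt -0.00135 by FPKM means. In KD vs. CAC they were Nnmt -0.0799 in limma-voom, Mat2b -0.0062 in mice labelled C57BL/6, Nnmt -0.15 and Shmt2 -0.14 in those labelled BALB/c, Nnmt -0.91, Phgdh -0.58 and Psat1 -0.49 without the adipocyte-rich libraries, Nnmt -0.19 and Shmt2 -0.00802 without the Nnt-high libraries, and Shmt2 -0.0843 by FPKM means. Gnmt in AM vs. KD was -0.86 without the Nnt-high libraries and -0.26 to 1.42 without 1 mouse. Leaving out 1 mouse gave ranges across 0 in AM vs. CAC for Gnmt (-2.08 to 0.15), Nnmt (-0.47 to 0.50), Mat2a (-0.0431 to 0.21), Mthfd1l (-0.0719 to 0.42), Shmt2 (-0.0267 to 0.14) and Psat1 (-0.36 to 0.22), in CAC vs. NOR for Nnmt (-0.52 to 0.47), Phgdh (-1.09 to 0.077), Mthfd1l (-0.36 to 0.44) and Mthfd2 (-0.12 to 0.39), and in KD vs. CAC for Nnmt (-0.16 to 0.61), Mthfd2 (-0.49 to 0.0351), Shmt2 (-0.0709 to 0.0799) and Psat1 (-0.43 to 0.54). AM replicate 1, with liver RNA, was in the AM vs. CAC fits in which Gnmt turned positive (C57BL/6 labels alone, and without CAC replicate 4). The causes were not tested.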
